A study of Mus musculus with 8 samples.

Results

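Caveolins and cavins are the coat proteins of caveolae, the flask-shaped pits of the plasma membrane. In the expression matrices of 8 mouse tumors, 5 genes of the family were taken by symbol: Cav1, Cav2, Cavin1, Cavin2 and Cavin3. They are 5 of 19024 gene symbols in these matrices, and each of the 5 was present in all 8. The family was chosen because Cavin3 was lower in malignant cells of tumors grown in Atg7-deleted hosts. The host difference of the 5 members in malignant cells is therefore described here without a test. The tests below concern the hosts in fibroblasts and endothelial cells, differences between kinds of cells within a library, and genes outside the family.

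Caveolin-1 inserts into the inner leaflet of the membrane as a hairpin, binds cholesterol and oligomerises, and caveolin-2 joins it in mixed oligomers. Cavin-1 trimers then assemble on caveolin-rich membrane, and cavin-2 and cavin-3 enter the same coat. Caveolae are abundant in endothelial cells, adipocytes, fibroblasts and muscle, where they flatten under tension and take part in signalling and lipid traffic, and they are scarce in lymphocytes.

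The tumors were subcutaneous grafts of MB49, a mouse urothelial cancer cell line, in C57BL/6 hosts. Hosts were C57BL/6 UbcreERT2/+;Atg7+/+ (wild type, libraries 1, 2, 5 and 6) or carried floxed Atg7 with the same UbcreERT2/+ (labelled Atg7∆/∆, libraries 3, 4, 7 and 8). All hosts received tamoxifen on 4 days. The graft followed 1 week after that, in both flanks (2 tumors a mouse), and was collected 3 weeks on. The ubiquitin promoter drives Cre in host tissues at large, so Atg7 was targeted in host cells, and the grafted malignant cells were not a target of the deletion. Which tumors share a mouse is not labelled, so 2 libraries may come from 1 animal, and p-values measure the spread between tumors. Dissociated cells passed a strainer and a density gradient meant for mononuclear cells before 10x 5′ libraries were made. The malignant, fibroblast and endothelial cells are those that came through these steps.

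Totals ran from 4371773 UMIs (library 7) to 59235799 UMIs (library 6). The class that carries the tumor's keratins held 10329 cells, 1220 to 4153 per wild-type library and 43 to 146 per deleted-host library. Krt8 ranged from 8.35 to 16.8 UMIs per 10000 UMIs of a cell and Krt18 was at least 3.45 in this malignant-like class, while Epcam was at 0 in all 8 libraries and the uroplakin gene Upk2 at 0 to 0.00152. The fibroblast-like class held 1894 cells (32 to 893 per library). The endothelial-like class held 117 cells, with no cell in library 1 and 1 cell in library 7. Median depth of malignant-like cells was 9621 to 16674 UMIs in wild-type hosts, and 1998, 2124, 15289 and 4650 UMIs in libraries 3, 4, 7 and 8. The 7-letter starts of the cell barcodes told libraries 1 to 4 from libraries 5 to 8. Each set holds both genotypes, and within-set values are given for the members in malignant-like and fibroblast-like cells. For endothelial-like cells no deleted-host library of the second set had enough cells. At most 46 cell barcodes were shared by any 2 libraries. The 5′ counts of Atg7 do not tell deleted from intact transcripts and check no label.

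Endothelial-like cells had the highest mean level of every member among the named classes. Over both hosts together, the immune classes averaged at most 0.661 for any member. With wild-type hosts alone, NK-like cells averaged 0.638 for Cav1 and 0.808 for Cavin3 (n = 3). With deleted hosts they averaged 0.0220 and 0.0208 (n = 4). All levels are means over the cells of a class of UMIs per 10000 UMIs of that cell, and they are compared between classes for one gene at a time. Over the 5 libraries with at least 10 endothelial-like cells, Cav1 averaged 10.2 ± 5.17 (SD, n = 5) in endothelial-like cells, against 3.21 ± 1.29 in malignant-like and 0.869 ± 0.401 in fibroblast-like cells (both n = 8). T-like cells of the same tumors averaged 0.182 ± 0.232 (n = 8). Cavin1 followed another order, with 6.86 ± 3.42 in endothelial-like cells, 2.78 ± 0.834 in fibroblast-like cells and 0.876 ± 0.252 in malignant-like cells. Cavin2, which binds phosphatidylserine and shapes the coat, was mostly endothelial: 5.12 ± 4.32 there, 0.427 ± 0.166 in malignant-like cells and 0.254 ± 0.120 in fibroblast-like cells. Cavin3 was spread over all 3 classes, at 4.91 ± 1.76, 2.72 ± 1.91 and 2.54 ± 1.28 in endothelial-, malignant- and fibroblast-like cells. Cav2 averaged 1.57 ± 0.802 in endothelial-like and 0.828 ± 0.123 in malignant-like cells, and only 0.0829 ± 0.0679 in fibroblast-like cells, close to the 0.0469 ± 0.0633 of T-like cells.

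**Figure D1:**
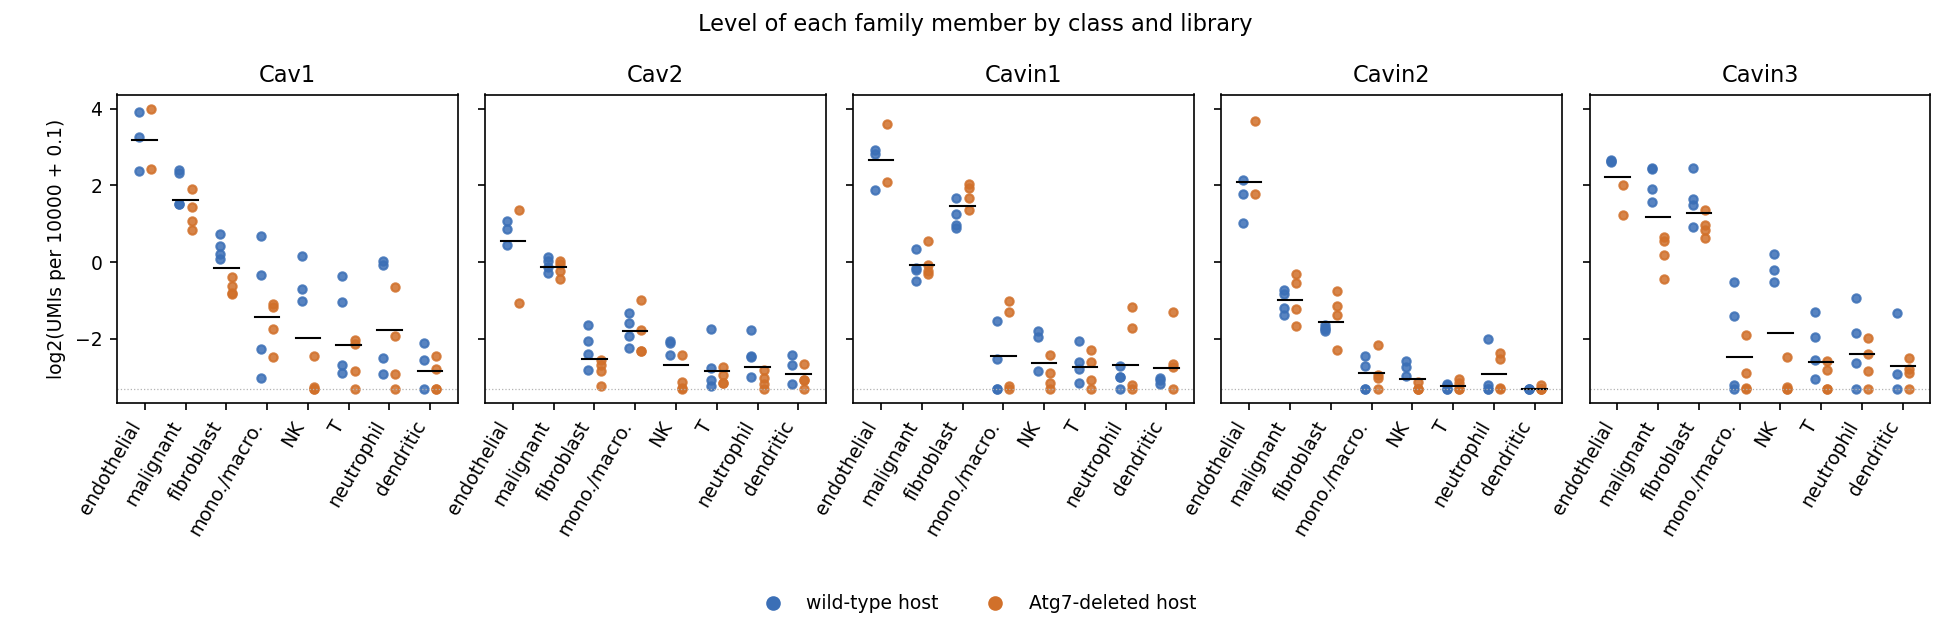
Level of each member as log2(UMIs per 10000 + 0.1) in 8 classes; each point is 1 library, blue for wild-type and orange for Atg7-deleted hosts, the bar is the mean and the dotted line is a level of 0. Endothelial-like cells lie highest for all 5 genes, and Cav1 and Cavin1 rank malignant-like and fibroblast-like cells in opposite order.

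Malignant-like and fibroblast-like cells differed in which coat genes they carried. The paired difference within a library was tested by a two-sided exact sign-flip permutation test, and p-values were adjusted over 15 comparisons (5 members, 3 pairs of classes). The classes were cut from the same cells, with the family left out of the genes used to cluster them. Cav1 was lower in fibroblast-like than in malignant-like cells in 8 of 8 libraries, by 3.44-fold (mean log2 difference -1.78 ± 0.34 SD, n = 8, exact adjusted p = 0.039). Cav2 was lower in 8 of 8 by 5.31-fold (-2.41 ± 0.51, n = 8, exact adjusted p = 0.039). Its fibroblast-like mean of 0.0829 is below the 0.1 added before taking logs, so the size of this fold depends on that constant. Over the alternatives run, the log2 difference of Cav2 ranged from -3.30 to -0.53. Cavin1, the cavin without which caveolae do not form, was higher in fibroblast-like cells in 8 of 8 by 2.92-fold (1.54 ± 0.49, n = 8, exact adjusted p = 0.039). These 3 comparisons had the smallest p that 8 libraries can give. Cavin2 was lower in 7 of 8 libraries (-0.58 ± 0.66, n = 8), which missed the threshold in the exact test with an adjusted p of 0.078. Cavin3 was higher in 4 of 8 and lower in the other 4 (0.12 ± 0.73, n = 8). Its malignant-like values chose the family, so this difference is given with no test. With cells thinned to 1000 UMIs the 3 differences were -1.83, -2.67 and 1.59, and the exact adjusted p rose to 0.059, 0.078 and 0.059 (n = 8).

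Cav1 and Cav2 are neighbours on the plus strand of chromosome 6 (mm10), both protein-coding, with Cav2 at 17281185-17289115 and Cav1 at 17306335-17341452, 17220 bases apart. Both stand higher in malignant-like than in fibroblast-like cells, so the 250 bases upstream of the RefSeq start that coincides with the annotated gene start are shown (RefSeq, GRCm38.p6), with that of Cavin2, whose level was mainly endothelial, for contrast. Capitals mark the GC box GGGCGG on either strand.
Cav1, chr6:17306085-17306334, plus strand: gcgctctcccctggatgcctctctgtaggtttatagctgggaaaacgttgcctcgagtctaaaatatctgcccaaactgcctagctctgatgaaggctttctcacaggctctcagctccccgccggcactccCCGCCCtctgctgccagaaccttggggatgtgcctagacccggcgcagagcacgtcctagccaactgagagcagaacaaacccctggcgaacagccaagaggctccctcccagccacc
Cav2, chr6:17280935-17281184, plus strand: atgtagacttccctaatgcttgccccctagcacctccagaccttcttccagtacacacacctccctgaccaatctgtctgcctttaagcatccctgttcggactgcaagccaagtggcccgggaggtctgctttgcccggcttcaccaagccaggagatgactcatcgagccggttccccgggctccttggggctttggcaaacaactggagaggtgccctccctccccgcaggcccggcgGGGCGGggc
Cavin2, chr1:51288876-51289125, plus strand: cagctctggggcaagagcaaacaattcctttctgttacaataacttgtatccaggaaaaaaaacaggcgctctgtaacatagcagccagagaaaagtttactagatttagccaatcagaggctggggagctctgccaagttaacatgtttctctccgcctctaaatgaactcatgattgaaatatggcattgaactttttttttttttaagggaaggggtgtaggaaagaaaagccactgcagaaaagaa
The Cav1 and Cav2 windows hold 1 GC box each, as do 32.7% of 32851 promoter windows of this length, and their GC content is 59.6% and 62.0%. The Cavin2 window has no GC box and a GC content of 40.4%, against a median of 52.4% over all windows. RefSeq lists a second Cav1 start at 17307640, whose window has no GC box and a GC content of 60.8%. The Cavin1 windows, not printed because they lie over an annotated exon, hold 1 GC box and 1 GGAATG element at a GC content of 67.6%. Whether any of these elements bears on the class levels was not tested. None of the 3 printed windows holds the TEAD element GGAATG on either strand, which 12.6% of all windows hold. Cavin1 (chromosome 11, 100956733-100970887, minus strand), Cavin2 (chromosome 1, 51289126-51302960, plus strand) and Cavin3 (chromosome 7, 105480083-105482300, minus strand) lie on chromosomes of their own.

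In the endothelial comparisons 5 libraries qualified, so the smallest exact p was 0.0625 and none could pass. Cavin2 was 12.2-fold higher in endothelial-like than in fibroblast-like cells (log2 difference 3.61 ± 0.80, n = 5) and 7.64-fold higher than in malignant-like cells (2.93 ± 0.93, n = 5), each in 5 of 5 libraries. Cav1 was 9.58-fold higher than in fibroblast-like cells (3.26 ± 0.92) and 2.71-fold higher than in malignant-like cells (1.44 ± 0.80), again in 5 of 5. Cavin1 was 6.45-fold higher in endothelial-like than in malignant-like cells (2.69 ± 0.39). With a minimum of 5 endothelial-like cells, chosen after the data were seen, 6 libraries qualified and 7 endothelial comparisons passed with an exact adjusted p of 0.043 (n = 6). Cav2 against malignant-like cells (0.51 ± 0.93) and Cavin3 against fibroblast-like cells (0.86 ± 0.71) did not pass. Cavin3 against malignant-like cells was 0.93 ± 0.84, given with no test.

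**Figure D2:**
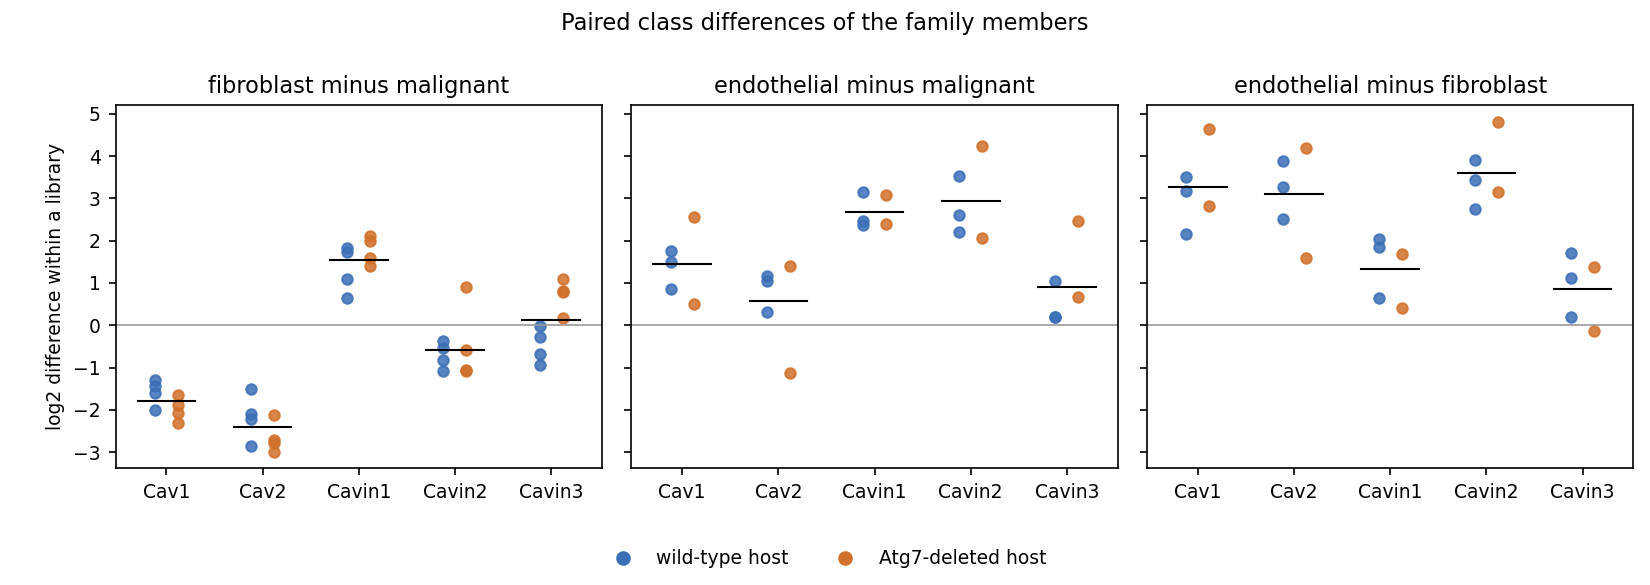
Log2 difference of each member between 2 classes of the same library, one point per library (blue wild-type, orange Atg7-deleted hosts), with the mean as a bar and 0 as a line. Cav1 and Cav2 lie below 0 and Cavin1 above 0 in all 8 libraries on the left; Cavin3 lies below 0 in the 4 wild-type and above 0 in the 4 deleted-host libraries.

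After thinning to 1000 UMIs, a UMI of Cav1 was found in 26.3% ± 9.44 of malignant-like (SD, n = 8), 8.20% ± 4.41 of fibroblast-like (n = 8) and 55.7% ± 11.3 of endothelial-like cells (n = 5). T-like cells, which should lack the gene, gave 1.73% ± 1.98 (n = 8). Before thinning the shares were 72.3%, 34.5%, 83.8% and 6.91%. For Cavin1 the thinned shares were 8.10% ± 2.66, 22.7% ± 7.11 and 43.3% ± 20.2 against 0.290% ± 0.357 in T-like cells. The Cav2 share of fibroblast-like cells, 1.70% ± 4.37, came mostly from library 1 at 12.5% of 40 cells. The other 7 libraries gave 0% to 0.535%, near the 0.498% ± 0.689 of T-like cells, and are read as background. At 2000 UMIs, Cav1 and Cavin1 were found together in 682 of 9712 malignant-like cells and in 81 of 1669 fibroblast-like cells. The product of the 2 shares, taken in each library and summed, gives 667 and 71.8 cells. These counts are a description, with no test.

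Cavin3, which binds protein kinase C delta and is also known as Prkcdbp, stood lower in malignant-like cells from Atg7-deleted hosts. In the wild-type libraries (1, 2, 5 and 6) the level per 10000 UMIs was 3.64, 5.43, 2.89 and 5.31, and it was 1.37, 0.631, 1.03 and 1.48 in the deleted-host libraries (3, 4, 7 and 8). Every deleted-host library was below every wild-type library. The means were 4.32 ± 1.25 and 1.13 ± 0.381 (SD, n = 4 each), 3.83-fold apart, a log2 difference of -1.86 on the log2(level + 0.1) scale. This contrast chose the family and is given without a test. Of 5463 genes measured, 5.66% lay lower in the deleted hosts with no overlap between groups, and 0.311% passed limma's adjusted threshold of 0.05 in that direction and 0.0732% in the other.

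The Cavin3 values rest on 25, 68, 240 and 159 UMIs in the 4 deleted-host libraries, and on 6999 to 27937 UMIs in the wild-type libraries. Summed over all malignant-like cells, library 4 gave 0.686 to 1.12 per 10000 (exact Poisson 95% interval, counting error only) and library 1 gave 3.82 to 4.01. Library 7 had a median depth of 15289 UMIs, like that of library 1 (15932), and a Cavin3 level of 1.03 against 3.64. Among cells of at least 2000 UMIs the log2 difference was -1.79, and after thinning to 1000 UMIs it was -1.93. Within libraries 1 to 4 it was -2.13 and within libraries 5 to 8 it was -1.59. T-like cells gave at most 0.305 in a wild-type library and 0.0652 in a deleted-host library.

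Other measures of the malignant-like class separated the hosts as well. Its own 11 measured markers summed to 43.6 to 49.7 per 10000 UMIs with wild-type hosts and to 24.9 to 31.6 with deleted hosts. Of these, Krt18, a keratin of simple epithelium, was 7.40 to 15 against 3.45 to 7.31, and Epcam was at 0 in all libraries. Other keratins overlapped between the hosts in this class. Krt8 was 13.5 to 16.8 against 8.35 to 14.2, and Krt19 was 0.910 to 4.45 against 0.586 to 1.55. Krt7 went the other way, with means of 0.00110 and 0.132. The median mitochondrial share of a cell was 4.13% to 6.61% against 1.02% to 2.92%. Dendritic cell markers summed to 4.85 to 6.85 against 0.662 to 4.00. Macrophage markers summed to 0.476 to 2.45 with wild-type hosts, and to 12.5, 11.2, 0.416 and 3.79 in libraries 3, 4, 7 and 8. The sum of the class's own markers, Krt18, the mitochondrial share and the dendritic cell markers did not overlap between the hosts. The macrophage markers overlapped and were highest in libraries 3 and 4. The part of these differences in the Cavin3 values was not tested.

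Malignant-like cells fell into 5 clusters with different weights in the groups. One cluster (number 1), led by Ccdc85b, Mt3 and Dynap, held 13.4%, 7.6%, 38.2% and 13.3% of the malignant-like cells of wild-type libraries 1, 2, 5 and 6, and 27.9%, 62.3%, 49.5% and 62% of those of libraries 3, 4, 7 and 8. Library 3, with 69.8% of its cells in cluster 0, was like wild-type libraries 1 and 2 in this. Wild-type cells lay mostly in cluster 0 (led by Hspb1, Gsta4 and Krt19) in libraries 1 and 2 and in cluster 3 (Prl2c2 and mitotic genes) in libraries 5 and 6. Within cluster 1, Cavin3 was 2.35, 4.40, 2.76 and 4.52 in wild-type libraries 1, 2, 5 and 6, and 1.66, 0.308, 0.547 and 1.27 in deleted-host libraries 3, 4, 7 and 8. The groups did not overlap there, with a log2 difference of -1.96. How many of all genes lay apart in this cluster was not counted. The part of the cluster weights in the Cavin3 values was not tested. Library 3 had 12 cells in this cluster. Median depth there was 1202, 2276.5, 6758 and 8346 UMIs in wild-type libraries 1, 2, 5 and 6. In libraries 3, 4, 7 and 8 it was 638.5, 978, 7874 and 1536 UMIs, so the values of libraries 3 and 4 rest on shallow cells. Within cluster 0, 4 wild-type libraries averaged 4.48 ± 1.82 and 2 deleted-host libraries 1.24 ± 0.0838, and within cluster 3, 2 wild-type libraries averaged 4.05 ± 1.44 and 2 deleted-host libraries 1.85 ± 0.378.

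Among non-mitotic malignant-like cells Cavin3 was 4.60 ± 1.47 in wild-type and 1.08 ± 0.448 in deleted hosts (n = 4 each). Cells that carried a UMI of Msln or Krt19 and none of Mt3 or Dynap gave 3.20 ± 1.56 and 0.805 ± 0.394 (n = 4 each). The latter cells are a part of the non-mitotic ones. Non-mitotic cells with Mt3 or Dynap and neither Msln nor Krt19 gave 3.12 ± 0.795 (n = 4) and 0.798 ± 0.227 (n = 2). These values belong to the contrast that chose the family and are given without a test. Mitotic against non-mitotic cells of the same library gave mean log2 differences of -0.10 to 0.19 for the 5 members, and none passed (exact sign-flip test, adjusted p of 0.804 to 1, n = 6). Cavin1 was lower in Msln or Krt19 cells than in Mt3 or Dynap cells in 6 of 6 libraries (-1.27 ± 0.82, exact adjusted p = 0.117, n = 6), which did not pass.

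**Figure D3:**
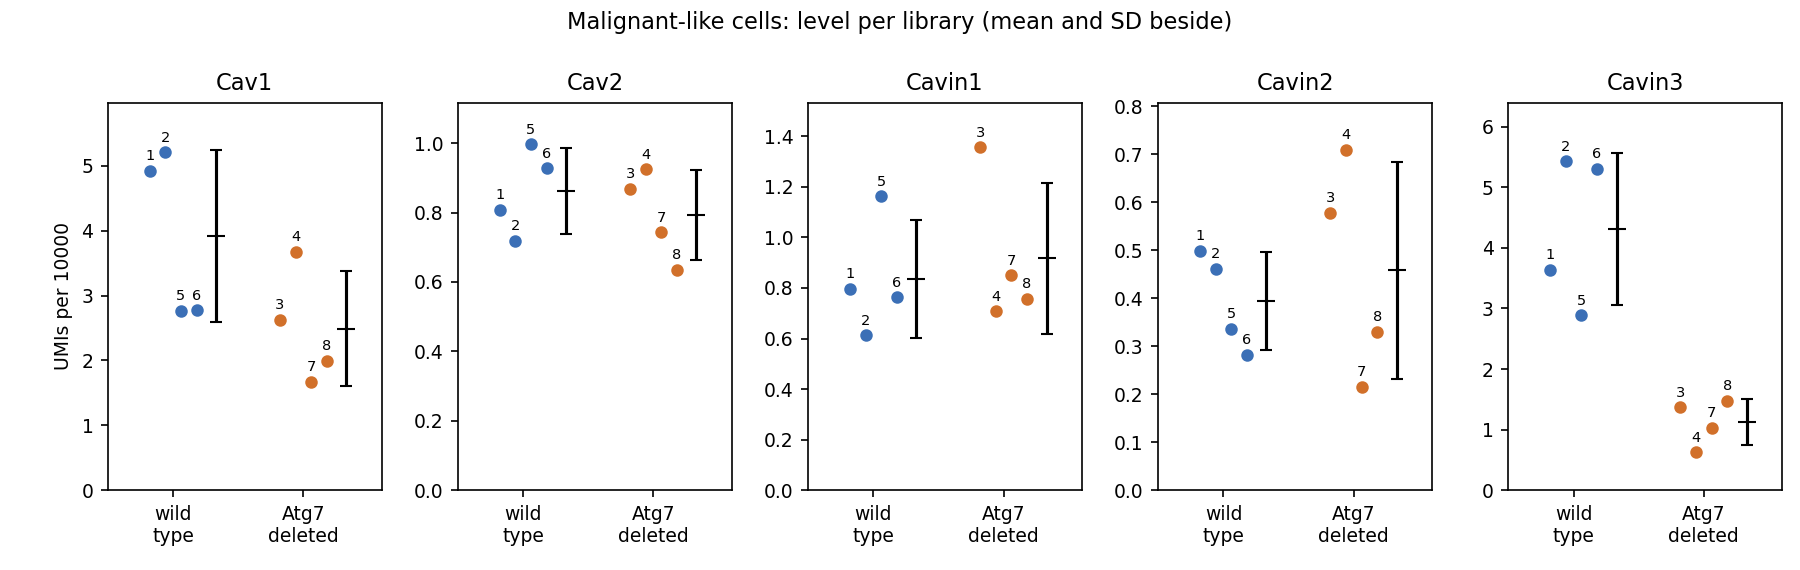
UMIs per 10000 of each member in malignant-like cells; each numbered point is a library (blue wild-type, orange Atg7-deleted hosts), with the group mean and SD beside it. Cavin3 of libraries 3, 4, 7 and 8 lies between 0.631 and 1.48, below the 2.89 to 5.43 of the wild-type libraries, while the other 4 members overlap.

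The other 4 members overlapped between the hosts in malignant-like cells. Cav1 was 4.93, 5.21, 2.77 and 2.77 in wild-type libraries 1, 2, 5 and 6, and 2.63, 3.67, 1.67 and 2.00 in libraries 3, 4, 7 and 8. The 2 library sets differed, and within each set both deleted-host libraries were below both wild-type libraries, 3.15 against 5.07 on average in libraries 1 to 4 and 1.83 against 2.77 in libraries 5 to 8. With 2 libraries of each host in a set, the share of all genes that lie apart in this way was not counted. Cav2 averaged 0.863 ± 0.124 and 0.793 ± 0.130 in wild-type and deleted hosts, Cavin1 0.834 ± 0.233 and 0.918 ± 0.298, and Cavin2 0.395 ± 0.102 and 0.459 ± 0.226 (n = 4 each). Cav2 was higher in the deleted-host libraries of the first set and lower in those of the second (log2 0.21 and -0.43). Cavin1 (0.44 and -0.21) and Cavin2 (0.35 and -0.15) also differed in sign between the sets. In malignant-like cells, fibroblast markers summed to between 0.459 and 3.22 per 10000 UMIs with wild-type hosts and to between 1.14 and 18.6 with deleted hosts, with library 3 highest. None of the 11 markers was at 0 in library 3 or 4, and Lum, Dpt, Pi16 and Serpinf1 were at 0 in libraries 7 and 8. Cavin1, the member that is higher in fibroblast-like cells, was highest in library 3 at 1.36, and the part of fibroblast RNA in that value was not tested.

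In fibroblast-like cells, the Cav1 levels of the 2 hosts did not overlap, those of the other members did, and no member passed the test. Cav1 was 1.56, 1.23, 1.06 and 0.964 in wild-type libraries 1, 2, 5 and 6, and 0.544, 0.663, 0.468 and 0.462 in deleted-host libraries 3, 4, 7 and 8. Each deleted-host library was below each wild-type library, as for 2.88% of the 5653 genes tested. The means were 1.20 ± 0.261 and 0.534 ± 0.0936 (SD, n = 4 each), 2.25-fold apart. The difference did not pass limma's test over all genes (log2 -1.03, SE 0.25, adjusted p = 0.197), in which 0.0884% of genes passed in either direction, 0.0177% lower and 0.0708% higher in deleted hosts. It was -1.08 within libraries 1 to 4 and -0.98 within libraries 5 to 8. Cav1 in T-like cells was 0.669, 0.386, 0.0547 and 0.0345 in the wild-type and 0.127, 0.143, 0 and 0.0388 in the deleted-host libraries. Less that level, fibroblast-like Cav1 was 0.918 ± 0.0696 against 0.457 ± 0.0478 (n = 4 each), still without overlap. The share of all genes that lie apart after this step was not counted. NK-like cells held more Cav1, with 1.31, 1.01, 0.516 and 0.392 in wild-type libraries 1, 2, 5 and 6. In deleted-host libraries 3, 4, 7 and 8 they held 0, 0.0834, 0 and 0.00452. The NK-like level was not subtracted, and how the Cav1 difference depends on the class taken as background was not tested. The 11 measured markers of malignant cells also moved with the host in fibroblast-like cells. They summed to 4.82, 5.24, 3.17 and 0.119 per 10000 UMIs in libraries 1, 2, 5 and 6, and to 0.153, 1.19, 0.0379 and 0.0463 in libraries 3, 4, 7 and 8. Library 6, with 64 fibroblast-like cells, had Krt8 and Krt18 at 0 and the lowest wild-type Cav1, 0.964. The part of malignant RNA in the Cav1 values was not tested in any library.

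**Figure D4:**
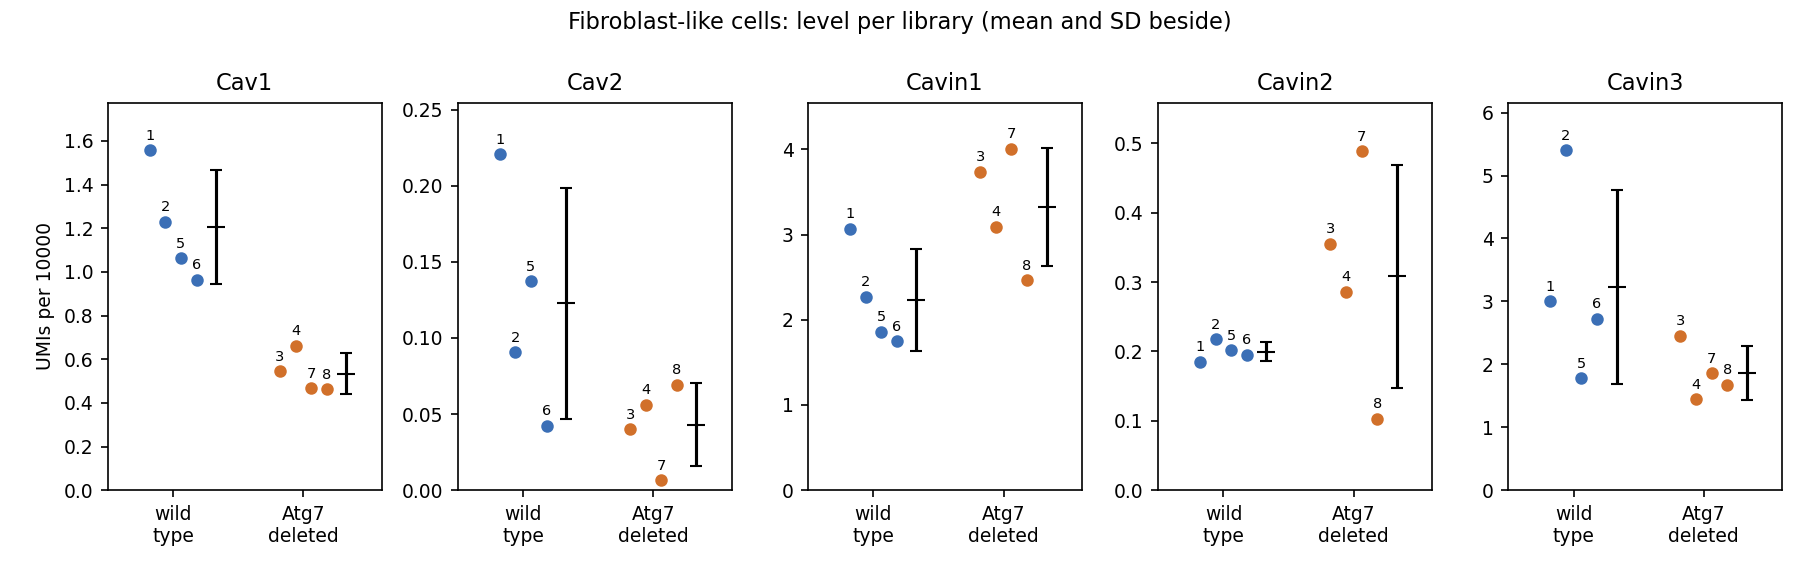
UMIs per 10000 of each member in fibroblast-like cells; each numbered point is a library (blue wild-type, orange Atg7-deleted hosts), with the group mean and SD beside it. Cav1 of the deleted hosts (0.462 to 0.663) lies below that of the wild-type hosts (0.964 to 1.56), and the other 4 members overlap.

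Cavin1 was 3.07, 2.27, 1.86 and 1.75 in the wild-type libraries and 3.74, 3.09, 4.01 and 2.46 in the deleted-host libraries, so the groups overlapped over all 8 libraries (limma log2 0.56, SE 0.29, adjusted p = 0.488), where 3.54% of genes lay higher in deleted hosts with no overlap. Within each library set the hosts did not overlap, with log2 differences of 0.35 in libraries 1 to 4 and 0.77 in libraries 5 to 8. A set holds only 2 libraries of each host, and the share of all genes that lie apart within the sets was not counted. Cavin3 was 3.0, 5.40, 1.78 and 2.73 against 2.46, 1.45, 1.86 and 1.67 (log2 -0.68, SE 0.34, limma adjusted p = 0.471). Library 2 was the highest of these, and the wild-type values of libraries 5 and 6 lay near those of the deleted hosts. The log2 difference of Cavin3 was -1.05 within libraries 1 to 4 and -0.31 within libraries 5 to 8. Cavin2 was near the filter of 0.2 UMIs per 10000, with 0.185 to 0.218 in wild-type and 0.103 to 0.488 in deleted hosts (log2 0.34, SE 0.34, limma adjusted p = 0.734, and 0.48 and 0.21 within the sets). Cav2 was below that filter, at 0.0425 to 0.221 and 0.00642 to 0.0694, and was not tested. In the same class Cav1 and Cavin1 thus had differences of opposite sign, and neither passed.

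The fibroblast-like cells were a mixture whose make-up varied between libraries and overlapped between the hosts. Pi16 and Dpp4 mark a fascial or adventitial kind of fibroblast, and a UMI of either was found in 73.9%, 28.1%, 37.7% and 32.8% of the fibroblast-like cells of wild-type libraries 1, 2, 5 and 6, and in 81.2%, 78.9%, 78.7% and 53.0% in libraries 3, 4, 7 and 8. Cav1 was lower in Pi16 or Dpp4 cells than in the rest in 7 of 7 libraries, by 3.25-fold (log2 -1.70 ± 0.75 SD, n = 7). Cavin1 was higher in them in 7 of 7 (0.52 ± 0.61) and Cavin3 in 7 of 7 (0.27 ± 0.26). Each had the smallest exact p that 7 libraries allow, 0.0156, and missed the threshold after adjustment over 15 (exact adjusted p = 0.078, n = 7). Library 2 had too few cells with Pi16 or Dpp4 to enter. The shares were taken without thinning. Cells with Pi16 or Dpp4 were deeper than the rest in libraries 1, 3, 4, 5, 7 and 8. In library 4 their median was 14775.5 against 6635 UMIs. In library 6 they were shallower, at 2821 against 6837 UMIs.

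Split this way, the difference of Cav1 between the hosts was smaller. In cells with Pi16 or Dpp4, Cav1 was 1.08, 0.232 and 0.160 in wild-type libraries 1, 5 and 6, and 0.473, 0.330, 0.243 and 0.328 in libraries 3, 4, 7 and 8 (log2 -0.10). In the other fibroblast-like cells it was 2.92, 1.25, 1.57 and 1.36 in wild-type libraries 1, 2, 5 and 6, and 0.853, 1.91, 1.30 and 0.613 in libraries 3, 4, 7 and 8 (log2 -0.59). The groups overlapped in both kinds of cell. The split was applied to the hosts after the data were seen, and cells were given to a kind by 1 UMI or more of 2 genes. Markers of pericytes and smooth muscle moved with the host too, and their sum in fibroblast-like cells was 4.49 to 14.9 per 10000 UMIs with wild-type hosts and 0.429 to 4.07 with deleted hosts. Myh11 and Higd1b were at 0 in most libraries of both. The part of these cells in the Cav1 difference was not tested.

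**Figure D5:**
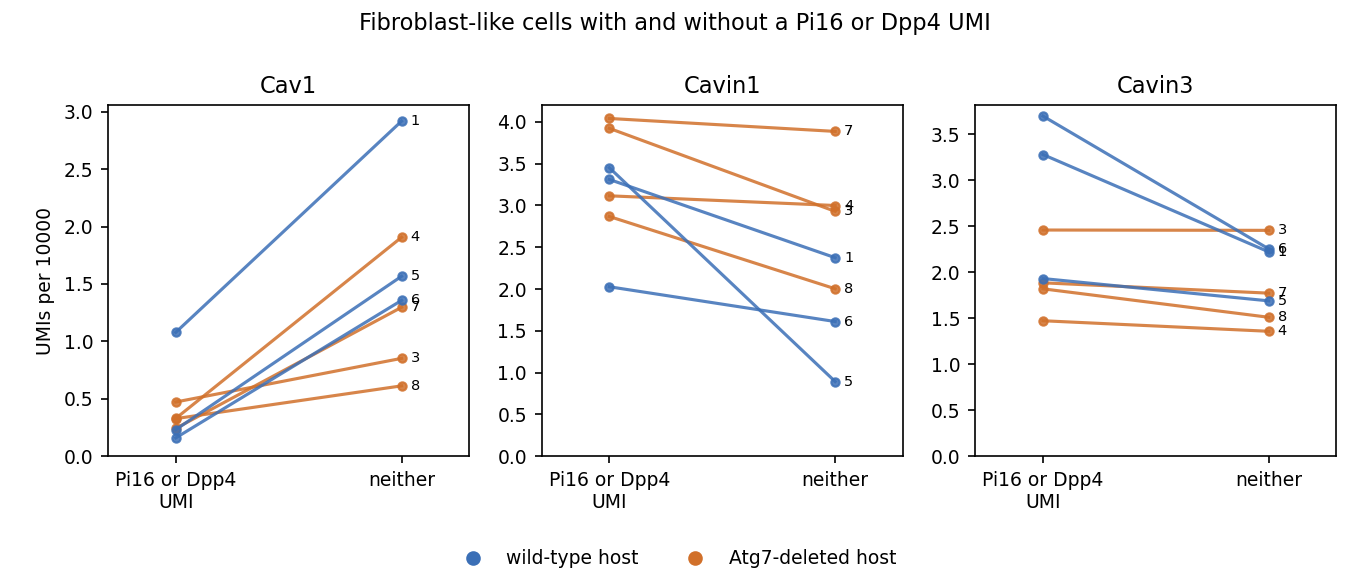
UMIs per 10000 of Cav1, Cavin1 and Cavin3 in fibroblast-like cells with a UMI of Pi16 or Dpp4 and in those with neither; each line joins the 2 values of a numbered library (blue wild-type, orange Atg7-deleted hosts). Cav1 is lower, and Cavin1 and Cavin3 are higher, in the Pi16 or Dpp4 cells of all 7 libraries.

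Endothelial-like cells were too few for more than a description of the hosts. Cav1 was 14.9, 5.09 and 9.57 in wild-type libraries 2, 5 and 6 (11 cells each), and 16.0 and 5.28 in deleted-host libraries 3 and 4 (35 and 41 cells). The 2 hosts overlapped, with a high and a low library in each. Cavin3 was 6.20, 6.08 and 6.06 in the wild-type libraries and 2.24 and 3.95 in the deleted-host ones, a 1.98-fold difference without overlap, as for 9.51% of 6067 genes. Cavin2 was 3.35, 1.91 and 4.33 against 12.7 and 3.31, with library 3 standing apart, and Cavin1 was 3.58, 6.93 and 7.52 against 12.2 and 4.12. Cav2 was 1.73, 1.26 and 2.02 against 2.47 and 0.372. No member passed limma's test over all genes, with adjusted p-values of 0.995 to 0.998, and 0.0165% of genes passed in either direction. On simulated data of this size the test recovered 0% of genes changed 4-fold, so a miss here says little about the members. Library 8 had 7 such cells, with Cavin3 at 3.07 and Cav1 at 6.75.

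Side by side, the log2 difference of Cavin3 (deleted minus wild-type hosts) was -1.86 in malignant-like, -0.68 in fibroblast-like and -1.01 in endothelial-like cells. The first chose the family and neither of the others passed. Over the alternatives run, the fibroblast-like value ranged from -0.92 to -0.38 and the endothelial-like value from -1.41 to -0.24. Whether the 3 values differ was not tested.

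Of the wider set of genes that act on caveolae, none outside the family passed limma's test in malignant-like cells, in which 0.384% of 5463 genes passed. Of 8 tested of 11 neck and scission proteins, 3 had positive and 5 negative differences (median log2 -0.23, against -0.08 over all genes). Among them Ehd2, the ATPase that holds caveolae at the surface, was 0.897 ± 0.0464 in wild-type and 0.533 ± 0.387 in deleted hosts (adjusted p = 0.448). Of 6 tested of 18 receptors and enzymes found in caveolae, 5 were negative (median -0.61). Plvap, a diaphragm protein of endothelial caveolae, had the smallest adjusted p of that list, with 0.668 ± 0.243 against 0.174 ± 0.0931 UMIs per 10000 in malignant-like cells (log2 -1.52, SE 0.33, adjusted p = 0.069). The 4 tested kinases and phosphatases that act on caveolin-1 had a median of 0.00, the 6 tested flotillins and raft proteins 0.25, and the 8 tested YAP and TEAD targets 0.18.

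In fibroblast-like cells none of the same lists had a gene that passed either, against 0.0884% of all genes. The SRF and MRTF targets, contractile and cytoskeletal genes, had a median log2 difference of -1.37 over 10 tested of 12, with 7 negative, against 0.04 over all genes. Tagln, an actin-binding protein of contractile cells, was 4.16 ± 1.61 in wild-type and 0.666 ± 0.623 in deleted hosts (log2 -2.86, SE 0.55, limma adjusted p = 0.092). Acta2, smooth muscle actin, was 6.23 ± 3.68 against 0.849 ± 0.755 (adjusted p = 0.115), and Myl9, a myosin light chain, 0.920 ± 0.245 against 0.190 ± 0.148 (adjusted p = 0.090). These 3 had no overlap between the hosts, as 2.88% of genes had none in that direction, and Acta2 is one of the pericyte and smooth muscle markers. Split by Pi16 or Dpp4, Acta2 kept its lack of overlap in both kinds of cell (log2 -1.94 with and -2.81 without), Tagln in the cells without (-2.75) and Myl9 in the cells with (-1.08). Cav1 overlapped in both. The receptors and enzymes found in caveolae had a median of 0.39 over 10 tested, 8 positive. Lpl, lipoprotein lipase, was 2.12 ± 0.938 against 7.54 ± 3.09 (log2 1.80, SE 0.40, adjusted p = 0.172). In endothelial-like cells no gene of any list passed, and the lowest adjusted p was 0.468. Genes named in these 2 paragraphs were picked from the lists after their values were seen, since no list gene passed.

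Across 68 combinations of class and library with at least 20 cells, in 12 classes, the genes whose log2 levels were most like each member were found among 10373 genes. For Cav1 they were Aqp1 (Pearson r = 0.92), Tm4sf1 (0.88), Enpp2, Tspan15 and Col18a1 (0.85 to 0.86). For Cav2 the most like gene was Cav1 (0.82), followed by Slc35e4, Tspan15, B3gnt3 and Podxl (0.79 to 0.81). For Cavin1 they were Apbb2, Hspg2, Cyr61, Nfib and Ppic (0.91 to 0.93), for Cavin2 Tjp1, Kitl, Ephb4, Pcdh1 and Adgrf5 (0.89 to 0.92), and for Cavin3 Ly6c1, Cald1, Npdc1, Tm4sf1 and Parva (0.91 to 0.94). Within the family, r ran from 0.44 (Cav2 with Cavin1) to 0.83 (Cav1 with Cavin3). At the minimum of 20 cells, endothelial-like cells entered only from libraries 3 and 4, both with deleted hosts. B/plasma-, mast- and skeletal-muscle-like cells also entered only from deleted hosts, and the unnamed cells counted as a class. The points share libraries and depth, so these are descriptions of one data set.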

How the data were processed

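Single-cell libraries from 8 tumors were used. Cell Ranger 2.1, Seurat 3.0 and mm10 are named, without their roles, per the submitters' processing notes. The deposited values are natural log values, the logarithm of 1 plus a gene's UMIs per 10000 UMIs of the cell. All nonzero values came out as whole UMIs (tolerance 0.01), and UMIs and totals per cell were recovered. The members and the gene lists were chosen with earlier results of these data known.

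A cell was kept with at least 200 genes and at most 10% of UMIs from mitochondrial genes. That left out 919 of 29496 cells, and the other 28577 were clustered (scanpy 1.11.5: 2000 variable genes without the family, 30 components, 15 neighbours, Leiden at resolution 1). A cluster took the name of the class with most markers among its 100 leading genes, with at least 3, unless another class had more markers among the top 10 or the cluster was shallow with none there, and 5296 cells stayed unnamed. This naming rule was refined after the clusters were seen. No doublet caller was run. A level is the mean over cells of UMIs per 10000. Genes with a mean level of at least 0.2 were tested with limma 3.58.1 on log2(level + 0.1), with a mean-dependent prior, no covariate and Benjamini-Hochberg adjustment over all genes tested. Class minima were 20 cells, and 10 for endothelial-like cells. On simulated data it found 74% (2-fold) and 100% (4-fold) of the changed genes in malignant-like cells over 5463 genes, and 65% and 94% in fibroblast-like cells over 5653. The simulation gave every gene the same spread between libraries, smaller than the median spread of the real genes. These shares can therefore overstate what the test finds in the real data. Named genes were the 5 members, list genes that passed, and the 5 genes most like each member; other genes named were chosen after their values were seen. Gene positions are from GENCODE (mm10) and promoters from RefSeq (GRCm38.p6), which held entries for 4 of the 5 members. Poisson intervals cover counting error only. Alternatives are given in the closing section.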

Additional observations from a re-analysis of the deposited data

Results flagged for a closer look

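Cavin3 was lower in fibroblast-like than in malignant-like cells in all 4 wild-type libraries (log2 difference -0.94 to -0.01) and higher in all 4 deleted-host libraries (0.17 to 1.08), a difference of 1.18 between the group means. The malignant-like values in it are those that chose the family, and the difference was not tested. Cav1 was lower in mitotic than in non-mitotic malignant-like cells in 4 wild-type libraries (-0.49 to -0.10) and higher in 2 deleted-host libraries (0.03 and 0.74), a difference of 0.72. Cav2 showed the same signs (-0.38 to -0.09, and 0.77 and 1.04), a difference of 1.14. The deleted-host side of both rests on 36 and 41 mitotic cells, and neither was tested. No member in malignant-like or fibroblast-like cells had a library far from the other 3 of its group by Dixon's ratio at the 95% level, in 20 groups tested.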

How the results depend on the processing

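The Cavin3 difference in malignant-like cells, which chose the family, kept its direction under every alternative run (log2 -1.43 to -2.03). The alternatives reuse the same libraries, so a kept direction is no further support for the difference. Within clusters 0, 2 and 3, which fewer libraries filled, the difference was -1.67, -1.23 and -1.06. Counts of genes past limma's adjusted threshold moved more. In malignant-like cells (21) the count was 869 with the mean of log values, 50 with summed UMIs, 281 with no filter, 122 with a library set term, 36 in cells of at least 2000 UMIs, 0 after thinning (536 at an unadjusted p under 0.05), 0 in one cluster (333), and 2 to 47 leaving out 1 library. In fibroblast-like cells (5) it was 2 with a pseudocount of 0.5, 3 with the mean of log values, 15 with no filter, 28 with the set term, 0 after thinning (525), and 2 to 5 leaving out 1 library. In endothelial-like cells (1) it was 2 with a pseudocount of 0.5, 26 without cells with a Ptprc UMI, and 0 with a pseudocount of 0.02 (227), summed UMIs (333), no filter (888), median-ratio scaling (301), the set term (121) or thinning (903), and 0 to 88 leaving out 1 library.

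Of the class comparisons, 3 passed, against 0 after thinning, 11 with a minimum of 5 endothelial-like cells, and 0 to 0 leaving out 1 library, where 7 libraries cannot pass after adjustment. The count of 11 includes Cavin3 in endothelial-like against malignant-like cells, which is given above with no test. Of the subset comparisons, 0 passed by the exact sign-flip test (4 at an unadjusted p under 0.05), and 0 to 3 leaving out 1 library, with 3 when wild-type library 2 was left out and fewer comparisons were adjusted over.

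The differences below changed sign, and the cause was not tested. In malignant-like cells Cavin2 moved from 0.10 to -0.69 after thinning, -0.71 in one cluster, -0.14 with summed UMIs, -0.083 with the mean of log values and -0.046 in cells of at least 2000 UMIs. Cavin1 moved there from 0.11 to -0.16 with summed UMIs and -0.14 with the mean of log values, and Cav2 from -0.11 to 0.12 in cells of at least 2000 UMIs and 0.0023 with summed UMIs. Fibroblast Cavin2 kept its sign and moved from 0.34 to 1.53 after thinning. Endothelial Cav1 was -0.69 with the set term, -0.29 after thinning and -0.76 to 0.82 leaving out 1 library, where Cav2 gave -1.88 to 0.56 and Cavin1 -0.46 to 1.08. Cavin3 in fibroblast-like minus malignant-like cells was -0.047 with the mean of log values and -0.018 to 0.27 leaving out 1 library. Cav2 in Pi16 or Dpp4 cells was 0.11 with a pseudocount of 0.02, 0.0020 with the mean of log values, 0.20 with summed UMIs and -0.23 to 0.10 leaving out 1 library. Mitotic minus non-mitotic values were 0.042 (Cav1) and 0.071 (Cavin3) with the mean of log values, -0.0061 (Cav2) with summed UMIs, -0.0037 (Cavin1) and 0.066 (Cavin3) without Ptprc cells, and -0.12 (Cav2) after thinning. Msln or Krt19 minus Mt3 or Dynap values were -0.035 (Cav1) with the mean of log values, -0.20 (Cav1) and -0.17 (Cav2) with summed UMIs, and -0.34 (Cav2) and 0.057 (Cavin3) without Ptprc cells. The fibroblast Cav1 difference was -0.10 and -0.59 within cells with and without Pi16 or Dpp4.

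No paired analysis was possible because the 2 groups share no replicate number. The alternatives of cell depth, one cluster, 5 endothelial-like cells and the fibroblast split were chosen after seeing the data.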

Other observations

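NK-like cells entered no test above. Cav1 per 10000 UMIs in them was 1.31, 1.01, 0.516 and 0.392 with wild-type hosts (libraries 1, 2, 5 and 6), and 0, 0.0834, 0 and 0.00452 in libraries 3, 4, 7 and 8. Cavin3 was 0.982, 1.06, 0.598 and 0.766 against 0.0785, 0, 0 and 0.00452. Library 1 had 10 such cells, the others 46 to 234. The keratin Krt8 stood beside them at 4.18, 2.64, 2.59 and 2.41 against 0.109, 0.336, 0 and 0.0135. As a percentage of the malignant-like level of the same library, Cav1, Cavin3 and Krt8 in NK-like cells were 18.6%, 20.7% and 17.0% in library 5 and 14.1%, 14.4% and 17.8% in library 6. In libraries 1 and 2 they were 26.5%, 27.0% and 26.9%, and 19.3%, 19.6% and 15.7%. T-like cells gave 0.706% to 1.97% for these genes in libraries 5 and 6, but 13.6%, 8.37% and 10.1% in library 1 and 7.42%, 2.92% and 4.77% in library 2.

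The muscle forms of the family, Cav3 and Cavin4, were rare. Of the 53 skeletal-muscle-like cells, 47 came from library 3. Of 32 UMIs of Cav3 in all libraries, 26 lay in those cells, as did 16 of 38 UMIs of Cavin4.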
